A study of Homo sapiens with 6 samples.

Results

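The subject is 10 human tubulin genes: the alpha tubulins TUBA1A, TUBA1B, TUBA1C and TUBA4A, the beta tubulins TUBB, TUBB2A, TUBB2B, TUBB4B and TUBB6, and the gamma tubulin TUBG1. They were taken by gene symbol, with 1 row each, from a deposited RNA-seq table of 60605 genes, of which 76 were tubulin genes or pseudogenes by symbol. The treated group was the human hepatoma line Huh-7 after it had received 100 µM pectolinarigenin, a flavone made by plants, over 24 h, and the control group was the same line given DMSO (0 µM). Both groups had been loaded with 100 µM oleic acid for 24 h as a high-lipid model and then starved. Each group had 3 libraries from this single cell line. The labels do not say that these were separate cultures, so the p-values measure the spread between libraries, which may be technical.

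Alpha and beta tubulin pair into the dimers from which microtubules are built, and gamma tubulin sits in a ring complex from which microtubules start to grow. Microtubules carry vesicles and lipoprotein cargo in hepatocytes and form the mitotic spindle in dividing cells. Cells are known to adjust alpha and beta tubulin mRNA to the amount of unpolymerised dimer. When free dimer is plentiful, the factor TTC5 binds the start of the newly made tubulin chain on the ribosome, and the mRNA is degraded with the help of the CCR4-NOT deadenylase. The chain starts that TTC5 reads are methionine, arginine, glutamate and cysteine in alpha tubulin and methionine, arginine, glutamate and isoleucine in beta tubulin. Neither tubulin protein nor microtubules were measured here.

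These starts are shown because they are the sequence feature that alpha and beta tubulins share and gamma tubulin lacks. The lines give the first 30 coding bases, 5′ to 3′, from 1 GENCODE 29 transcript per gene, with the first 4 codons in capitals. TUBA1A and TUBA1C have the same 30 bases as TUBA1B.
TUBA1B: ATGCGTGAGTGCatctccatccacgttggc
TUBA4A: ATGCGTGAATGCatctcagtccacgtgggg
TUBB: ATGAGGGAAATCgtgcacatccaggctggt
TUBB2A: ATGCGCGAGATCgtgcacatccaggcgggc
TUBB2B: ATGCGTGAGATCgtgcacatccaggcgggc
TUBB4B: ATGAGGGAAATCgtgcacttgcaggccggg
TUBB6: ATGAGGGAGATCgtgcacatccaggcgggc
TUBG1: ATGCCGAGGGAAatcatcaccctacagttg

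Depth ranged from 15140022 to 20311261 counts per library. Across tested genes, whose values are not independent, Pearson's r of log2(FPKM + 1) was at least 0.987 between treated libraries, at least 0.991 between control libraries and at most 0.965 between the groups. Treated library 3, the deepest, stood apart from treated libraries 1 and 2 on the second principal component. The summed level of 9 hepatocyte markers was 9017 to 9813 FPKM (counts scaled to gene length and library total) in treated libraries. In control libraries it was 12464 to 12654 FPKM. Of the 9, 8 were called lower (edgeR, adjusted p under 0.05), beside 25.3% of all tested genes. Markers of fibroblasts summed to at most 0.49 FPKM, with DCN and LUM at 0 counts in all 6 libraries. Those of endothelium summed to 1.16 to 1.37 FPKM in treated and 2.32 to 2.63 FPKM in control libraries, almost wholly PECAM1. Those of leukocytes summed to 54.9 to 78.7 FPKM in treated and 42.6 to 42.9 FPKM in control libraries, almost wholly LYZ. PTPRC had at most 2 counts. CD14 went the other way, with 1.89, 1.97 and 2.06 FPKM in treated and 3.45, 2.64 and 2.85 FPKM in control libraries. The part of these markers in the tubulin results was not tested. In bulk RNA, fewer cells and less RNA per cell cannot be told apart.

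The main tubulin mRNAs of these cells fell under pectolinarigenin. The 9 alpha and beta tubulins together summed to 246.5 ± 15.2 FPKM in treated cells and 634.6 ± 38.0 FPKM in control cells (SD, n = 3 each), a ratio of 0.388. Their share of all counts was 0.0754% ± 0.0048 in treated and 0.196% ± 0.010 in control cells. Of the 10 genes, 8 had a mean level of at least 1 FPKM and were tested, and all 8 reached that level in each group on its own. At an adjusted p under 0.05, 7 were lower and 1 was higher (edgeR quasi-likelihood test, Benjamini-Hochberg over 12829 genes). Across all tested genes 50.6% were called, 25.3% as lower and 25.3% as higher. TUBA1B, TUBA1C, TUBB and TUBB4B, 4 of the 8, were called at least 2-fold lower, against 1.92% of tested genes. The median log2 fold change of the 8 was -1.09, beside 0.00071 over all tested genes.

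**Figure D1:**
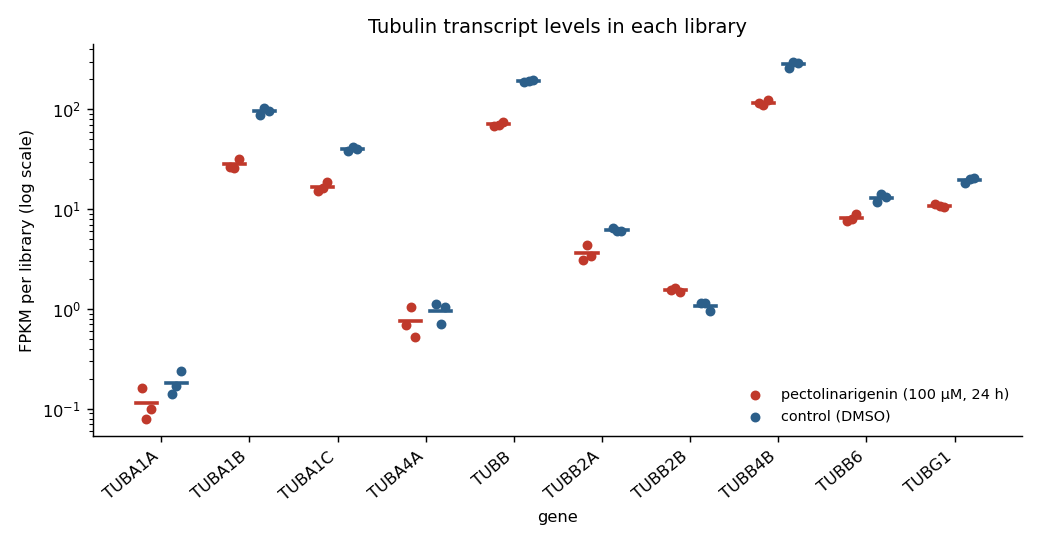
FPKM of each of the 10 tubulins in every library on a log axis, with pectolinarigenin (red) left of control (blue); points are libraries and lines are group means. In 7 genes the 3 treated points lie below the 3 control points, in TUBB2B they lie above, and in TUBA1A and TUBA4A the groups overlap.

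TUBA1B (ENSG00000123416, chromosome 12, 49127782 to 49131397, minus strand, GRCh38) encodes the main alpha tubulin of these cells. It had 26.7, 25.8 and 32.2 FPKM in treated libraries 1 to 3, and 88.0, 104.5 and 97.3 FPKM in control libraries 1 to 3. Every treated library was far below every control library, and treated library 3 was the highest of the treated ones. The gene fell 3.51-fold (log2 fold change -1.81, SE 0.086, adjusted p = 7.31e-10, edgeR), the largest fall among the 10 genes.

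TUBA1C (ENSG00000167553, chromosome 12, 49188736 to 49274603, plus strand), a closely similar alpha tubulin, had 15.3, 16.3 and 18.9 FPKM in treated libraries and 38.5, 41.6 and 40.6 FPKM in control libraries. The groups did not overlap, and treated library 3 was again the highest of its group. Its log2 fold change was -1.29 (SE 0.075, adjusted p = 6.97e-09, edgeR), a 2.45-fold fall. Without treated library 3 the log2 fold changes of TUBA1B and TUBA1C were -1.92 and -1.39.

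The other alpha tubulins were scarce and were not tested at the level set for all genes. TUBA4A, an alpha tubulin abundant in platelets, had 0.69, 1.05 and 0.53 FPKM in treated and 1.13, 0.71 and 1.04 FPKM in control libraries. TUBA1A, the main alpha tubulin of developing neurons, had 10, 5 and 8 counts in treated and 10, 12 and 14 counts in control libraries. The groups overlapped in both genes. Without an expression filter their log2 fold changes were -0.38 (SE 0.20, adjusted p = 0.193, edgeR) and -0.67 (SE 0.45, adjusted p = 0.350), so neither was called. TUBA1A lies partly under TUBA1C on the opposite strand, and the strand setting of the counting is not given in the sources used here.

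Among beta tubulins, TUBB (ENSG00000196230, chromosome 6, 30720201 to 30725426, plus strand), the isotype common to most cell types, had the smallest p of all 10 genes and ranked 13th by p among the 12829 tested. It had 68.1, 70.3 and 74.6 FPKM in treated libraries, against 186.82, 193.85 and 195.85 FPKM in control libraries. The treated values were close to each other and well below the control values. The fall was 2.78-fold (log2 fold change -1.47, SE 0.058, adjusted p = 1.10e-10, edgeR).

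TUBB4B (ENSG00000188229, chromosome 9, 137241213 to 137243707, plus strand), a widely expressed beta tubulin, had the highest level per length of the 10 genes in both groups. It stood at 114.95, 109.83 and 123.94 FPKM in treated libraries and at 257.25, 300.01 and 295 FPKM in control libraries. Again no treated library reached a control library. TUBB4B fell 2.51-fold (log2 fold change -1.33, SE 0.070, adjusted p = 2.38e-09, edgeR).

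TUBB6 (ENSG00000176014, chromosome 18, 12307669 to 12344320, plus strand), a more divergent beta tubulin, had a smaller fold change. It had 7.63, 7.91 and 8.94 FPKM in treated libraries and 11.8, 14.1 and 13.4 FPKM in control libraries, with no overlap. Its log2 fold change was -0.71 (SE 0.085, adjusted p = 7.71e-06, edgeR), a 1.64-fold fall.

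TUBB2A fell and its neighbour TUBB2B on chromosome 6 rose, and both are beta tubulins best known from neurons. TUBB2A (3153669 to 3157526, minus strand) had 3.13, 4.39 and 3.37 FPKM in treated and 6.45, 6.10 and 6.00 FPKM in control libraries, and its log2 fold change was -0.81 (SE 0.12, adjusted p = 4.33e-05, edgeR). TUBB2B (3224261 to 3231730, minus strand) had 1.54, 1.64 and 1.48 FPKM in treated and 1.14, 1.15 and 0.95 FPKM in control libraries, and its log2 fold change was 0.48 (SE 0.14, adjusted p = 0.0108). In neither gene did the groups overlap. TUBB2B is the weaker call: without control library 3, its log2 fold change was 0.40 and its adjusted p 0.0576.

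These 2 genes are also the hardest to tell apart. Their coding sequences were 98.2% identical, and their transcripts shared an unbroken identical run of 725 bases, so how reads were divided between them is uncertain. Their summed level does not depend on that division between them except through gene length. It was 5.18 ± 0.74 FPKM in treated and 7.26 ± 0.32 FPKM in control cells (SD, n = 3 each), a ratio of 0.714. The abundant TUBB4B shared a run of 143 bases with TUBB2A and with TUBB2B. Whether its reads entered this sum was not tested. TUBA1B and TUBA1C shared a run of 326 bases and TUBA1A and TUBA1B one of 221 bases, and TUBA1A was 97.2% identical to TUBA1B in its coding sequence. The longest run shared by TUBB with another of the 10 genes was 35 bases.

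TUBG1 (ENSG00000131462, chromosome 17, 42609676 to 42615234, plus strand), the main gamma tubulin of dividing cells, had 11.27, 10.75 and 10.65 FPKM in treated libraries and 18.28, 20.3 and 20.45 FPKM in control libraries. The groups did not overlap. It fell 1.85-fold (log2 fold change -0.89, SE 0.062, adjusted p = 5.24e-08, edgeR). Its chain starts with methionine, proline, arginine and glutamate, as the line above shows, so its mRNA does not have the start that TTC5 reads. Whether TTC5 took part in any of the tubulin changes was not tested.

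**Figure D2:**
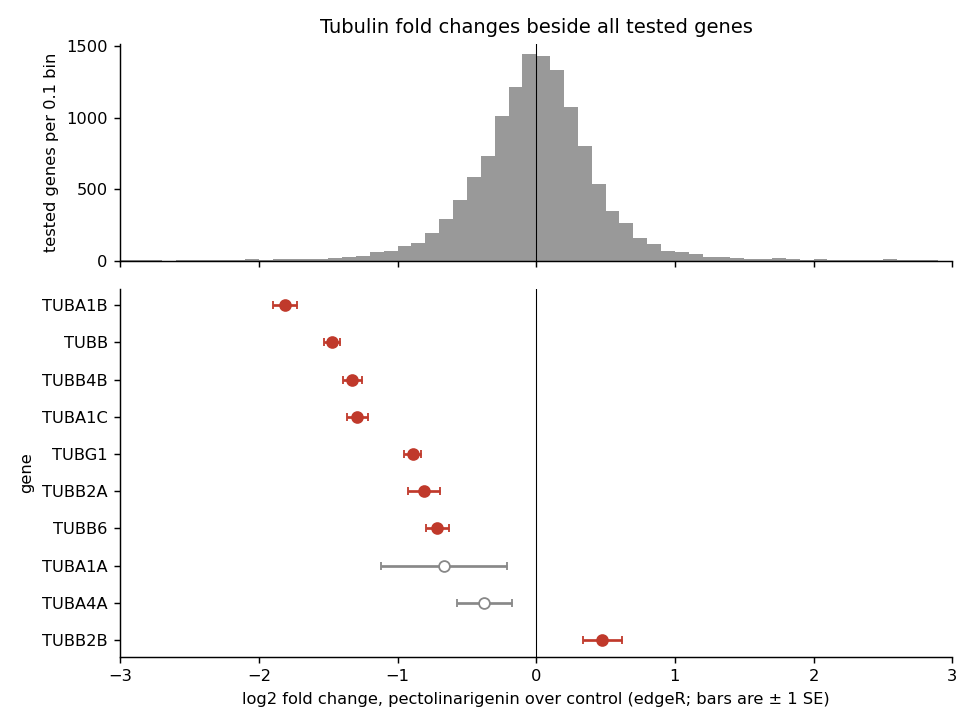
Upper panel: number of tested genes per 0.1 bin of log2 fold change (pectolinarigenin over control), shown between -3 and 3. Lower panel: log2 fold change of each tubulin with ± 1 SE; open symbols are TUBA1A and TUBA4A, which were below the expression filter. TUBA1B lies furthest left at -1.81, and TUBB2B is the gene right of 0.

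Of all 10, 7 had treated FPKM values entirely below the control values and 1 entirely above. Among all tested genes these shares were 25.4% and 33.5%. By level per length, the order in both groups was TUBB4B, TUBB, TUBA1B, TUBA1C, TUBG1, TUBB6, TUBB2A, TUBB2B, TUBA4A and TUBA1A. In control libraries TUBB2B (0.95 to 1.15 FPKM) and TUBA4A (0.71 to 1.13 FPKM) overlapped, so their order there is not resolved. The lengths behind the deposited FPKM were 90.6% to 189.5% of the summed exon length in GENCODE 29 for these genes. Levels of different genes are therefore comparable only within about that factor, while a gene's change between groups is unaffected.

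Isotype shares did not overlap between the groups, except for TUBB4B. For the scarce TUBA1A, TUBA4A and TUBB2A, though, the treated libraries differed among themselves by more than the group means did. Shares within a pool are tied: a lower share of any gene raises the others, so a higher share need not mean more mRNA. TUBA1B was 61.4% ± 1.5 of the alpha tubulin FPKM in treated cells and 70.0% ± 1.1 in control cells (SD, n = 3 each). TUBA1C held 36.6% ± 1.0 in treated and 29.2% ± 0.93 in control cells. In the beta pool, TUBB held 35.4% ± 0.73 in treated and 38.8% ± 1.4 in control cells, while TUBB6 held 4.06% ± 0.15 in treated and 2.63% ± 0.10 in control cells. TUBB2B, the gene that rose, held 0.777% ± 0.075 of the beta pool in treated and 0.218% ± 0.030 in control cells. TUBA1A held 0.374%, 0.185% and 0.193% of the alpha pool in treated libraries and 0.110%, 0.116% and 0.172% in control libraries, and the difference of 0.118 percentage points was 0.057 without treated library 1. The difference for TUBA4A was 0.984 percentage points and 0.614 without treated library 2, and that for TUBB2A was 0.567 and 0.345 without the same library. TUBB4B held 57.9% ± 1.2 in treated and 57.2% ± 1.4 in control cells, and its shares overlapped.

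The ratio of alpha to beta tubulin mRNA was lower in every treated library than in every control library. The alpha pool was 45.9 ± 5.0 FPKM in treated and 138.0 ± 9.6 FPKM in control cells, and the beta pool was 200.6 ± 10.2 FPKM in treated and 496.6 ± 28.8 FPKM in control cells. That ratio was 0.219, 0.223 and 0.244 in treated libraries and 0.276, 0.285 and 0.272 in control libraries. For this ratio and for 8 of the 9 isotype shares an exact 2-sided permutation test gave p = 0.1 (0.111 adjusted over the 10 measures), the smallest that 3 against 3 libraries allow. For the share of TUBB4B the same exact permutation test gave p = 0.5. Since the shares within a pool are tied, these measures are not independent of each other.

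**Figure D3:**
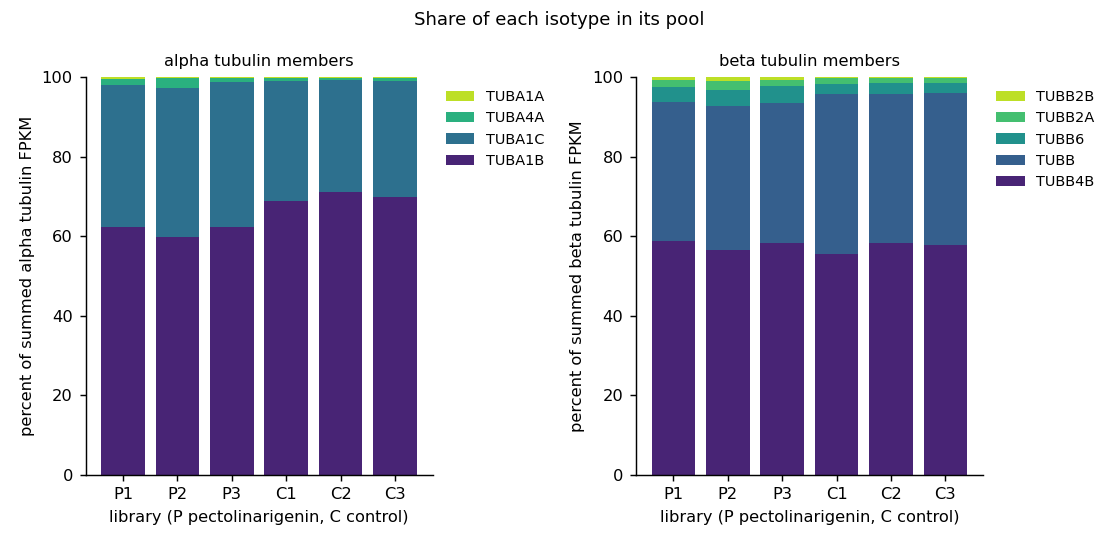
Share of each alpha (left) and beta (right) tubulin in the summed FPKM of its pool, as stacked bars for treated libraries P1 to P3 and control libraries C1 to C3. TUBA1B takes 59.7% to 62.4% of the alpha pool in treated and 68.9% to 71.1% in control libraries, and TUBB4B is the largest beta share in all 6.

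The chain start was then looked up across the transcriptome. Of 10596 tested genes with an annotated coding start in GENCODE 29, 8 had either of the starts described above, and 0 of these were genes outside the tubulin family. The 8 were TUBA1B, TUBA1C, TUBB, TUBB2A, TUBB2B, TUBB4B and TUBB6 with TUBB8B, a beta tubulin known mainly from sequence. TUBB8B fell too, with 4.04, 4.73 and 5.34 FPKM in treated and 8.29, 8.57 and 8.25 FPKM in control libraries (log2 fold change -0.86, SE 0.12, adjusted p = 2.72e-05, edgeR). TUBB8B shares an identical run of 89 bases with TUBB4B, so the division of reads between them is uncertain. Of the 8, 7 were called lower and TUBB2B higher, beside 25.3% of all tested genes lower and 25.3% higher. All but TUBB8B are genes reported above, so this count mostly repeats their calls. Further tubulins with either start, TUBA1A and TUBA4A among them, were below the expression filter and were not tested. Tubulins without that start went both ways: TUBG1 fell, and TUBE1, the epsilon tubulin of centrioles, rose by 0.59 on the log2 scale (SE 0.085, adjusted p = 4.23e-05, edgeR), with 3.81, 3.63 and 3.81 FPKM in treated and 2.61, 2.39 and 2.25 FPKM in control libraries. Named after their values were seen, TUBG2, another gamma tubulin, which shares an identical run of 215 bases with TUBG1, fell by 0.68 on the log2 scale (SE 0.15, adjusted p = 0.00135), and TUBD1, the delta tubulin, was not called (0.13, SE 0.091, adjusted p = 0.236).

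Few other family members were measured. Of the 66 other tubulin genes and pseudogenes 33 had 0 counts in every library and 7 were tested. Of these 7, 5 were lower, 1 was higher and 1 was not called, with a median log2 fold change of -0.68. Over all tested genes 25.3% were lower and 25.3% higher. The pseudogene TUBBP5, which shares an identical run of 82 bases with TUBB4B, fell by 1.17 on the log2 scale (SE 0.22, adjusted p = 0.000395, edgeR). Named after its values were seen, TUBBP1, which shares 212 bases with TUBB, had 19, 12 and 13 counts in treated and 43, 65 and 27 counts in control libraries. Whether reads of the abundant tubulins were counted at such copies was not tested.

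Upstream sequence was compared because 7 genes fell together. The 250 bases before 1 RefSeq start per gene (GRCh38.p14) were searched for CCAAT and for GGGCGG on both strands. Other starts of these genes were not searched. The window of TUBA1C, 49227676 to 49227925, lies inside the gene span given above. Those of TUBB2B and TUBA4A also lie inside their GENCODE 29 gene spans. Windows of TUBA1A, TUBB and TUBB4B run partly into the gene span, and those of TUBA1B and TUBG1 by a few bases. Such windows are therefore not wholly upstream of the gene. CCAAT was found in 6 of the 10 genes and in 32.0% of all 35116 RefSeq promoters, not only those of tested genes. The 6 were TUBA1C, TUBB, TUBB4B and TUBG1, which fell, TUBB2B, which rose, and TUBA1A, which was not called. GGGCGG was found in 6 of the 10 and in 42.6% of the same promoters. These were TUBA1B, TUBB, TUBB2A and TUBG1, which fell, TUBB2B, which rose, and TUBA4A, which was not called. TUBB4B has 3 CCAAT, at -232, -166 and -103 from the start, and no GGGCGG, while TUBA1B has 3 GGGCGG and no CCAAT. Both windows are printed with CCAAT in capitals, since these strongly lowered genes differ in both motifs. The TUBB4B window is chr9:137241037-137241286 on the plus strand and the TUBA1B window is chr12:49131396-49131645 on the minus strand.
TUBB4B: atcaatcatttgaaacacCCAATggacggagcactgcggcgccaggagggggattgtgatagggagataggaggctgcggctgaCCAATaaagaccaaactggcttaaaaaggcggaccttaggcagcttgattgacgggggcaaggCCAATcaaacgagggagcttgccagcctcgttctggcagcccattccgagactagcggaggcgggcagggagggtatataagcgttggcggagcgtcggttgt
TUBA1B: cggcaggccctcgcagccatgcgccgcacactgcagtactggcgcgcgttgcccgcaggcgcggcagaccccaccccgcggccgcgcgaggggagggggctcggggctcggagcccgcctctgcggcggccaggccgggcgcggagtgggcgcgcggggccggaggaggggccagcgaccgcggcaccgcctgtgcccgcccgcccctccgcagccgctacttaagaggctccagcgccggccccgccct

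Genes that work with tubulin were read from lists. Each count below stands beside 25.3% of all tested genes called lower and 25.3% called higher. Where no p is printed, a gene named from a list had an adjusted p of at most 0.000552 (edgeR) and kept its call in every alternative that tested it; some were below the filter at a mean of 5 FPKM. Of 22 genes of tubulin folding (the prefoldin and CCT chaperones and the tubulin cofactors) 10 rose, 0 fell and 12 were not called, with a median log2 fold change of 0.16. CCT2, a subunit of the CCT chaperonin that folds tubulin and actin, had 71.0, 70.2 and 79.3 FPKM in treated and 49.1, 48.4 and 49.4 FPKM in control libraries (log2 fold change 0.55, SE 0.061, adjusted p = 4.29e-06, edgeR). TBCEL, a protein related to cofactor E, rose by 0.49 (SE 0.072).

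In the list of 7 autoregulation genes 2 fell, 0 rose and 5 were not called, beside 25.3% of all tested genes lower and 25.3% higher. TTC5, the factor that reads the chain start, had 2.20, 1.81 and 1.81 FPKM in treated and 2.76, 2.57 and 2.73 FPKM in control libraries (log2 fold change -0.51, SE 0.091, adjusted p = 0.00029, edgeR). CNOT1, the scaffold of the deadenylase, had 30.9, 25.9 and 21.3 FPKM in treated and 41.5, 41.4 and 40.9 FPKM in control libraries (log2 fold change -0.70, SE 0.092, adjusted p = 1.91e-05). Treated library 3 was the lowest for CNOT1. Without treated library 3, or without TMM scaling of library totals, 1 gene of the list was called higher.

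Of 13 genes of the gamma-tubulin ring complex and its anchors 6 fell, 1 rose and 6 were not called, with a median of -0.24. Without TMM scaling 4 fell and 2 rose. The fall of TUBG2 is counted both here and among the other tubulin genes above. TUBGCP3, a ring subunit, changed by -0.35 (SE 0.064) and AKAP9, a scaffold that anchors the ring at centrosome and Golgi, by -0.74 (SE 0.10). PCNT, pericentrin, changed by 0.25 (SE 0.089, adjusted p = 0.0306, edgeR). It was called in 8 of 14 alternatives. Its adjusted p was 0.0738 with limma on log2(FPKM + 1), 0.0710 with limma on log2(FPKM + 0.1), 0.158 without treated library 1, and 0.0701, 0.0813 and 0.105 without control libraries 1, 2 and 3.

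The other microtubule lists had calls in both directions, as did all tested genes (25.3% lower and 25.3% higher). Of 13 tested genes of tubulin modification 5 rose and 5 fell, with a median log2 fold change of -0.058. AGBL3, which trims tubulin tails, rose by 0.94 (SE 0.12) and AGTPBP1, which shortens glutamate side chains, by 0.32 (SE 0.061). The tubulin ligases TTLL7 and TTLL3 changed by -0.88 (SE 0.094) and -0.67 (SE 0.12). The count of falls was 3 without treated library 3 or control library 1 or 2, 2 without control library 3, and 3 without TMM scaling.

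Of 18 tested microtubule-associated and plus-end proteins 5 rose and 6 fell, with a median of -0.034. CKAP5, which speeds microtubule growth, changed by -0.64 (SE 0.065) and its partner TACC1 by -0.49 (SE 0.064), whereas TACC3, its partner at the mitotic spindle, rose by 0.38 (SE 0.051). TACC2 changed by 0.25 (SE 0.072, adjusted p = 0.0100, edgeR; 0.0575 without control library 1). The count of rises was 3 without treated library 1 or 2 or control library 2, and 2 without control library 1 or 3.

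Of 12 tested destabilising and severing proteins 3 rose and 4 fell, with a median of -0.12. KATNAL1, a katanin that cuts microtubules, fell by 1.03 on the log2 scale (SE 0.11), and FIGN, another severing enzyme, by 0.39 (SE 0.064). The kinesin KIF18A, which restrains growth at plus ends, rose by 0.37 (SE 0.056).

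Actin is the other main filament system. Of 15 genes of actin, its partners and intermediate filaments 8 rose and 0 fell, with a median log2 fold change of 0.16. Cytoplasmic gamma actin, ACTG1, had 366.5, 359.5 and 375.9 FPKM in treated and 225.5, 247.4 and 247.3 FPKM in control libraries (log2 fold change 0.58, SE 0.058, adjusted p = 1.58e-06, edgeR). TPM4, a tropomyosin that lies along actin filaments, rose by 0.49 (SE 0.060). The rises numbered 5 without control library 1, and 2 genes of the list were called lower without treated library 3.

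**Figure D4:**
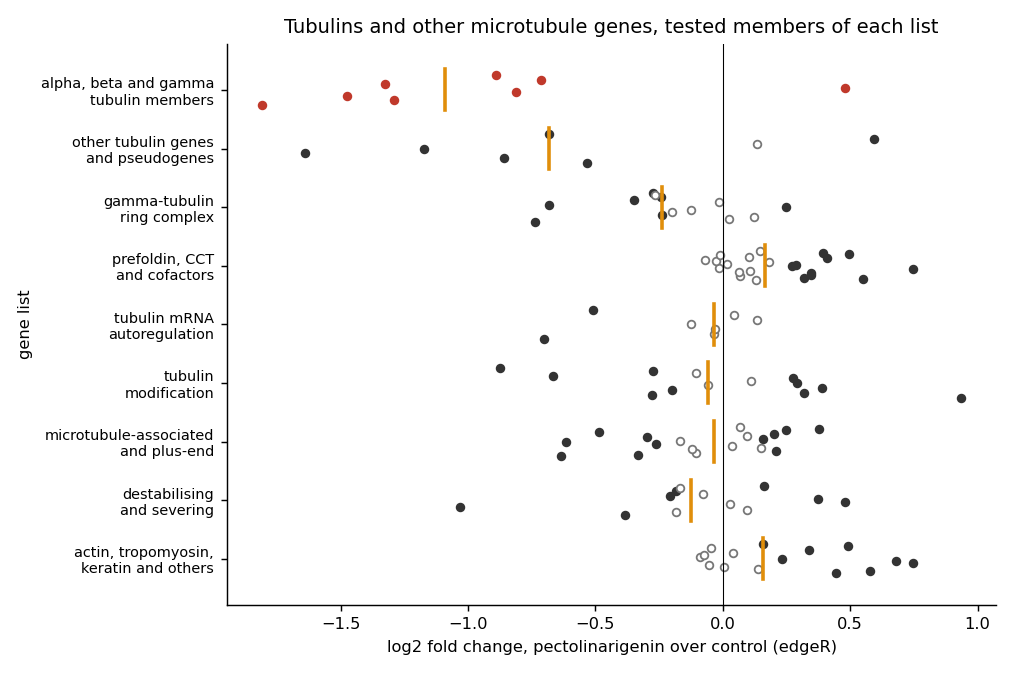
Log2 fold change (pectolinarigenin over control) of every tested gene in each tubulin, microtubule and actin list, with the tubulins in red at the top; filled points have an adjusted p under 0.05, open points do not, and the orange line is the list median. The tubulin median is -1.09, that of the other tubulin genes and pseudogenes is -0.68, and the other plotted lists have medians between -0.24 and 0.16.

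The genes whose pattern over the 6 libraries was most like the summed alpha and beta tubulins, by Pearson's r of log2 CPM (counts scaled to library total) among 6995 genes with at least 5 FPKM, were AKAP7 (r = 0.999), PLBD1 (0.999) and UNG (0.998). These values mostly record the difference between the groups, since 70 genes had r of at least 0.99. AKAP7 had 3.95, 3.79 and 4.09 FPKM in treated and 7.64, 8.25 and 7.94 FPKM in control libraries.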

How the data were processed

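RNA-seq was analysed from 3 treated and 3 control libraries. The deposited counts were whole numbers per gene, not normalized, and the deposited FPKM had been scaled by the authors to library total and gene length: over 1846 genes above 20 FPKM in every library the length implied by count and FPKM varied by at most 0.000189 (coefficient of variation). The submitters' processing notes name cutadapt 1.9.1, HISAT2 2.0.1, HTSeq 0.6.1 and GRCh38. The annotation release, strand setting and treatment of multiply matching reads are not stated there.

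Genes with a mean of at least 1 FPKM (12829) were tested with edgeR 4.0.16 (R 4.3.3), TMM factors, no covariate, 2-sided, with Benjamini-Hochberg adjustment at 0.05. SEs come from the F statistic. DESeq2 1.42.0 and limma 3.58.1 were alternatives. The pipeline was tested on simulated data. The members and lists were chosen with earlier results of these data known. From each list, up to 2 called genes with the smallest p in each direction were named, and 1 gene so chosen is not reported here. Positions and coding starts are from GENCODE 29 and promoters from RefSeq, which held all 10 genes.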

Additional observations from a re-analysis of the deposited data

How the results depend on the processing

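The 7 falls among the 10 tubulins kept their direction and call in every alternative that tested them: other scalings, expression filters, DESeq2, limma on log2(FPKM + 1) or log2(FPKM + 0.1), a replicate block and each library left out. The log2 fold change of TUBA1B ranged from -1.92 to -1.74 and that of TUBB6 from -0.79 to -0.62. TUBB2B was called in 13 of 14, missing only without control library 3 (adjusted p = 0.0576). The number of tubulins called was 6 at a mean of at least 5 FPKM, where 6 were tested, and 7 to 8 without single libraries. Over all genes 6486 were called, 4098 at a mean of at least 5 FPKM because fewer were tested, and 5304 to 6510 without single libraries. Without TMM factors the median of all tested genes moved to 0.038 and 3727 of the 6547 called genes were higher. The difference in the share of TUBB4B was -0.038 to 1.46 percentage points without single libraries, reversed only without control library 1. Replicate numbers did not pair the libraries: deviations of same-numbered libraries correlated at -0.0025 to 0.016. With the replicate block 8 tubulins and 6540 genes were called. TUBA1A, at 5 to 14 counts per library, is limited by depth.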
